A study of Mus musculus with 83 samples.

Results

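The cytosolic and mitochondrial chaperones described here are 40 genes, chosen by name from the 21572 gene rows of the count table. They are heat shock proteins, their co-chaperones, 2 heat shock factors and 6 subunits of the CCT chaperonin. Chaperones of the endoplasmic reticulum were meant to be left out, although the list holds Hspa13, a microsome-associated Hsp70. RNA of the 40 genes was followed in 83 libraries, each from 1 ovarian follicle of wild-type CD-1 mice, an outbred stock. Follicles were vitrified (cooled into a glass without ice) or used fresh. Both kinds had grown for 8 days in 0.5% alginate beads with 10 mIU/ml recombinant FSH, so the 0 h groups carry this culture too. Follicles 300 to 350 µm wide were taken out of the alginate by a lyase for 20 min at 37 °C. They then received recombinant FSH (10 mIU/ml), EGF (10 ng/ml) and human chorionic gonadotropin (hCG, 1.5 IU/ml). Collection was at 0 h (15 vitrified and 18 fresh follicles), 1 h (14 and 6), 4 h (7 and 7) or 8 h (12 and 4).

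Titles name 3 plates. A zero-hour plate held all 0 h libraries and no others, so changes between 0 h and 1 h cannot be told apart from a difference between plates. A shared plate held all fresh libraries of 1, 4 and 8 h and 5, 7 and 3 vitrified libraries of these times. The vitrified-only plate carried 9 vitrified follicles collected at 1 h and 9 collected at 8 h. On every plate, each group lay in plate rows of its own. Sample numbers in the titles repeat between some rows of the shared plate, and the labels do not say whether its rows were processed together. Differences between groups of a plate therefore cannot be told apart from differences between rows. Unless another plate is named, values at 1, 4 and 8 h are those of the shared plate. No label ties a follicle to an animal or a culture run. Each p-value therefore reflects follicle-to-follicle spread alone, some of which may be technical.

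Chaperones bind proteins that are unfolded or not yet folded. Hsp70 and Hsp110 proteins work in cycles of ATP with J proteins, which deliver clients, and with nucleotide exchange factors such as the Bag proteins. Hsp90 acts later on signalling proteins that include steroid hormone receptors and kinases, CCT folds actin and tubulin, and Hsp60 with Hsp10 folds proteins inside mitochondria. Heat shock factor 1 binds arrays of the letters GAA and TTC, the heat shock element, in promoters of many of these genes. In an ovarian follicle, hCG acts on the receptor for luteinizing hormone and starts the steps that lead to ovulation, in which granulosa cells change their gene expression within hours.

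Promoter windows are shown for the members that held such an array and for the pair Hspa1a and Hspa1b, the inducible Hsp70 genes. A window ran from 250 bases before to 50 after the start in RefSeq on GRCm38.p6, and 33 of the 40 members had an entry. The array searched was 3 units, GAA and TTC in turn with 2 bases of any kind between units, on both strands and starting with either unit. It was found in 5 of the 33 members (15.2%) and in 179 of all 27025 genes with an entry (0.662%). A gene was counted when any of its windows matched, and a gene can have more than 1. In Hsph1 the array lay after the start, from base 16 on in the entry shown. Capitals mark the matched letters, with overlapping matches joined.
Dnajb6, chr5:29735808-29735887, plus strand: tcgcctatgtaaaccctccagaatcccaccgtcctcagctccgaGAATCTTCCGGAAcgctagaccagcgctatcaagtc
Hsph1, chr5:149636276-149636305, minus strand: gcagaTTCTGGAAAGTTCtcctcagtaggc
Chordc1, chr9:18292217-18292291, plus strand: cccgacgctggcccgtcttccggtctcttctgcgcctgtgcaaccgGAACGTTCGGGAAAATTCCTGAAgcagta
Hspd1, chr1:55088033-55088102, minus strand: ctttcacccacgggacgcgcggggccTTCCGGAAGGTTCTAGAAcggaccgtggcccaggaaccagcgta
Hspe1, chr1:55088023-55088092, plus strand: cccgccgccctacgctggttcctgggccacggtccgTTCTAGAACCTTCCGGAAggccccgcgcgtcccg
Hspd1 and Hspe1 lie head to head, and their windows read the same array from opposite strands. With 2 units in place of 3, a search added after the first was seen, 15 of the 33 members (45.5%) and 4587 of all genes with an entry (16.973%) had a match. Among these 15 were Hspa1a and Hspa1b, whose last 150 bases before the start are shown with the 2 units in capitals.
Hspa1b, chr17:34959239-34959388, minus strand: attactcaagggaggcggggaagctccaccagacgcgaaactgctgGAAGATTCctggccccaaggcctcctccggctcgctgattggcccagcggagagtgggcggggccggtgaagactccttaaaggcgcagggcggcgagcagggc
Hspa1a, chr17:34972157-34972306, minus strand: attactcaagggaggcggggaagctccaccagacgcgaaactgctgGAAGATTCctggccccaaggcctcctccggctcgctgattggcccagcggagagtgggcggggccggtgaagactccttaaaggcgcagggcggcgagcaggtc
The pair differed at 1 of these 150 bases and at 4 of the 300 in the whole window. A match describes letters only, and no measurement of factor binding was made.

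Libraries held 682200 to 6504588 counts in all and at least 11184 detected genes each. Values are given as CPM, counts scaled to a common library total, after TMM scaling, which sets libraries level on the bulk of their genes. All 40 members passed the filter on low counts, among 11889 genes tested with edgeR's quasi-likelihood test, and a gene was called when its p, adjusted over all of them (Benjamini-Hochberg), was below 0.05. The 8 granulosa markers (Fshr, Inha, Inhba, Foxl2, Amh, Nr5a2, Cyp19a1 and Hsd17b1) took 6.97% ± 0.573 of counts in vitrified and 6.49% ± 0.911 in fresh follicles at 0 h, but 1.64% ± 0.112 in vitrified and 1.59% ± 0.285 in fresh ones at 8 h (mean ± SD). The 10 oocyte markers together took at most 0.0304% of counts in any library, so the label of a whole follicle is met by its granulosa cells and hardly by its oocyte. Counts of 1 gene model, Gm10800, took 0.751% to 16.4% of a library and were lowest at 8 h. In such bulk samples, fewer cells of a type and less RNA per cell cannot be told apart.

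Per transcript length, in the authors' TPM values, Hsp90ab1 was the most abundant member in every group. It averaged 1264 ± 446 TPM in vitrified and 1507 ± 289 in fresh ones at 0 h (mean ± SD, n = 15 vitrified and 18 fresh). Hspa8, the constitutive Hsc70 of the cytosol, came second in each group, with 488 ± 128 TPM in vitrified and 593 ± 142 in fresh follicles at 0 h. The lowest level at 0 h was that of Dnaja4, at 0.0563 ± 0.0944 TPM in vitrified and 0.0249 ± 0.0476 in fresh follicles. Gm10800 weighs far more in TPM than in counts. It had 173070 to 530391 TPM in vitrified and 131645 to 435676 in fresh libraries at 0 h, and 86660 to 210286 in fresh ones at 8 h. TPM levels of other genes are thus relative to a total that Gm10800 fills to a varying part, and its part in the members' values was not tested. At 0 h the members' spread between follicles, as the coefficient of variation of CPM, was least for Bag3 in vitrified (9.72%) and Stip1 in fresh follicles (11.5%) and greatest for Dnaja4 (177% in vitrified and 188% in fresh follicles). Together the 40 members took 0.623% ± 0.102 of counts in vitrified and 0.698% ± 0.114 in fresh follicles at 0 h. At 1, 4 and 8 h these shares were 0.946% ± 0.103, 1.12% ± 0.0923 and 1.16% ± 0.170 in vitrified and 0.998% ± 0.0743, 1.24% ± 0.105 and 1.26% ± 0.127 in fresh follicles.

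**Figure D1:**
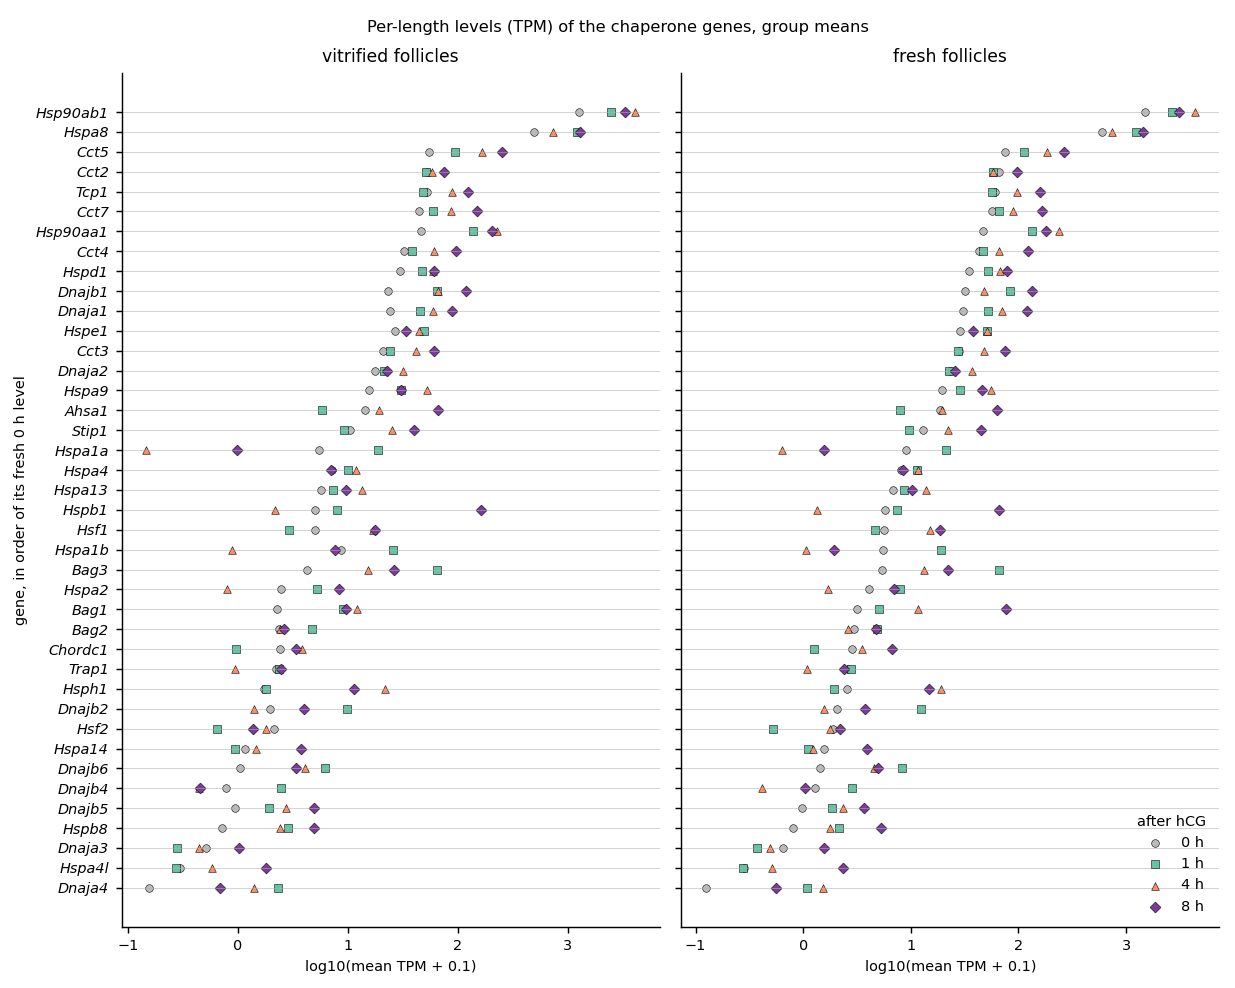
Mean level of each of the 40 members per group in the authors' TPM values, which allow comparison between genes, on a log scale. Hsp90ab1 and Hspa8 lie at the top in every group, and Dnaja4 is lowest at 0 h.

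At 1 h after hCG, most members were above their 0 h level in both kinds of follicle, with Bag3, the J proteins Dnajb6, Dnajb2 and Dnaja4, and the Hsp70 genes Hspa1b, Hspa1a and Hspa8 among the increases. In vitrified follicles 27 of 40 members rose and 5 fell, where 43.5% of all genes tested were called. In fresh follicles 25 rose and 4 fell, where 42.1% of all genes were called. The median log2 fold change of the 40 was 0.94 in vitrified follicles, against -0.05 over all genes, and 0.76 in fresh ones, against -0.11. The same 25 members rose in both, and Ahsa1, Chordc1, Dnaja3 and Hsf2 fell in both. Dnaja2 and Cct3 rose, and Hsf1 fell, in vitrified follicles without being called in fresh ones, but none of these 3 steps differed between the kinds at an adjusted p below 0.05. Scaling by total counts alone moved the median of all genes to -0.65 in vitrified and -0.60 in fresh follicles. It gave 17 members higher and 9 lower in vitrified follicles, and 14 higher and 11 lower in fresh ones. The share of all genes called under this scaling is not given here. Of the members called, Hspa13, Dnaja2, Cct3 and Cct4 changed sign under it in vitrified follicles, as did Cct4 and Cct7 in fresh ones.

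Bag3, the co-chaperone that joins Hsp70 to small heat shock proteins and to autophagy, had the largest step among members well detected at 0 h. At 1 h it had 748, 668, 522, 386 and 353 CPM in the 5 vitrified follicles and 267 to 591 (median 482) in fresh ones, while at 0 h it had 24.6 to 34.9 (median 30.5) in vitrified and 27.2 to 44.7 (median 31.4) in fresh ones. No 1 h library overlapped a 0 h library. The log2 fold change was 4.12 (SE 0.14, edgeR adjusted p = 1.76e-43) in vitrified and 3.80 (SE 0.13, edgeR adjusted p = 3.15e-44) in fresh follicles. At 4 h Bag3 was down at 82.5 to 138 (median 98.5) CPM in vitrified and 67.6 to 120.3 (median 93.8) in fresh ones, and at 8 h it had 100.4, 79.3 and 186 in vitrified and 97.5, 75.9, 101 and 89.9 in fresh follicles, all above the 0 h range. Bag2, which inhibits the ubiquitin ligase CHIP, also rose at 1 h and fell at 4 h in both kinds. It averaged 8.44 ± 3.07 CPM at 0 h, 19.8 ± 7.46 at 1 h, 8.58 ± 2.62 at 4 h and 5.98 ± 1.46 at 8 h in vitrified follicles (SD), and 9.09 ± 2.53, 17.5 ± 5.37, 9.45 ± 2.68 and 10.1 ± 1.84 in fresh ones.

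**Figure D2:**
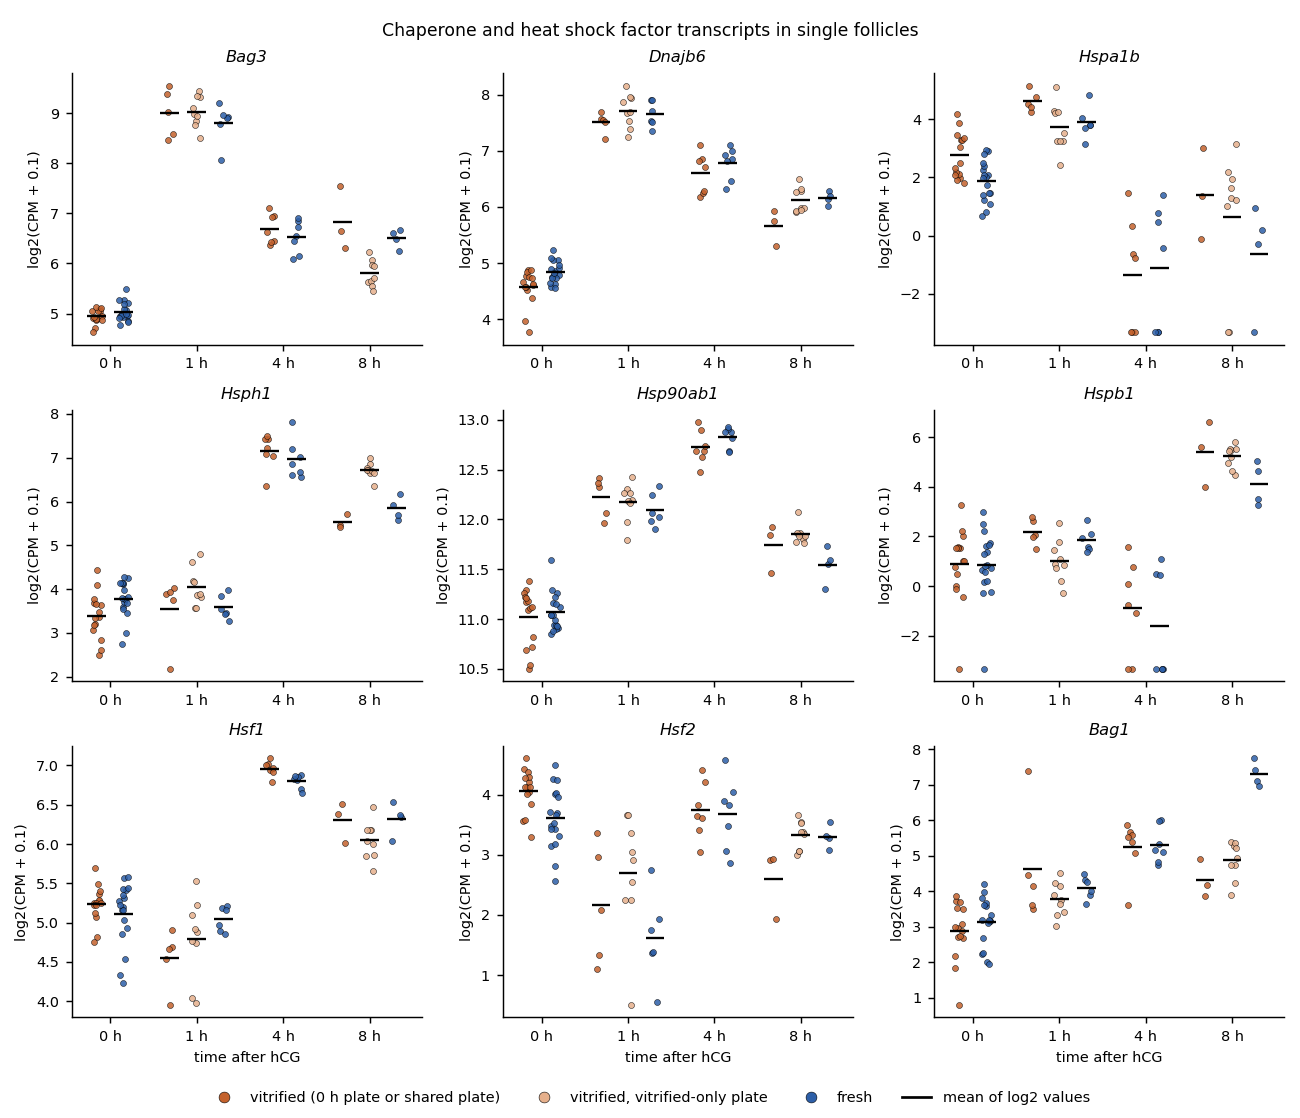
CPM of 9 members in every library (points, 1 per follicle) by time and kind of follicle, on the scale log2(CPM + 0.1), with the plates told apart. With TMM scaling, and leaving aside the vitrified-only plate, Bag3, Dnajb6 and Hspa1b peak at 1 h, and Hsph1, Hsp90ab1 and Hsf1 at 4 h. Vitrified 8 h libraries of the vitrified-only plate overlap the vitrified 4 h range of Hsph1. Hspb1 is highest at 8 h, Hsf2 is lowest at 1 h, and Bag1 parts the kinds at 8 h. The decrease of Hsf1 from 4 h to 8 h depends on scaling.

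J proteins stimulate the ATPase of Hsp70. Of the 9 among the members, 8 rose at 1 h in vitrified and 7 in fresh follicles, and the mitochondrial Dnaja3 fell in both. Dnajb6, known for holding back aggregation of polyglutamine proteins, had 148, 190.0, 206, 186 and 182 CPM in vitrified and 163 to 239.8 (median 196) in fresh follicles at 1 h, against 13.5 to 29.4 (median 24.7) in vitrified and 23.5 to 37.6 (median 27.9) in fresh ones at 0 h. Its steps were 2.91 (SE 0.13, edgeR adjusted p = 2.53e-35) in vitrified and 2.81 (SE 0.12, edgeR adjusted p = 2.11e-37) in fresh ones, with no overlap between times. It then fell at 4 h, by 0.88 in vitrified and 0.86 in fresh follicles. At 8 h it fell again, by 0.96 in vitrified and 0.65 in fresh follicles, but in fresh follicles this turned to 0.0015 under scaling by total counts alone and to 0.13 with limma. Dnajb2, a J protein that carries ubiquitin-interacting motifs, rose by 2.59 in vitrified and 2.81 in fresh ones on the log2 scale at 1 h and fell at 4 h, with steps of -3.16 in vitrified and -2.99 in fresh ones. It averaged 5.32 ± 2.80, 32.4 ± 7.34, 3.54 ± 1.57 and 6.79 ± 0.644 CPM at 0, 1, 4 and 8 h in vitrified follicles (SD), and 4.75 ± 1.44, 33.8 ± 9.90, 4.22 ± 1.96 and 5.95 ± 0.569 in fresh ones. Dnajb4, close in sequence to Dnajb1, rose at 1 h and fell at 4 h, and its means over the 4 times were 6.89, 26.5, 3.05 and 2.09 CPM in vitrified and 10.00, 25.97, 3.07 and 5.16 in fresh follicles. Its 4 h steps were -3.12 (SE 0.32, edgeR adjusted p = 6.68e-14) in vitrified and -3.05 (SE 0.32, edgeR adjusted p = 8.85e-14) in fresh ones.

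Dnajb1, the classical Hsp40, had 159.9, 115, 78.3, 56.6 and 87.3 CPM in vitrified and 60.7 to 202 (median 96.98) in fresh follicles at 1 h, against 19.6 to 55.6 (median 30.5) in vitrified and 15.9 to 66.5 (median 30.6) in fresh ones at 0 h, with steps of 1.65 in vitrified and 1.54 in fresh ones. Its later changes were called in fresh follicles, at -0.75 for 4 h against 1 h and 0.70 for 8 h against 4 h, the second of which was lost when 1 fresh 8 h library was left out. Dnaja4 was close to silent at 0 h, with rounded counts of 0 in 10 of 15 vitrified and 13 of 18 fresh libraries. At 1 h it had 9.91, 6.12, 7.31, 41.6 and 12.4 CPM in vitrified and 2.01 to 8.16 (median 5.55) in fresh follicles, so that the 1 h libraries lay above the 0 h ones, the highest of which had 1.63 CPM in vitrified and 0.559 in fresh follicles. Its fitted steps, 5.55 (SE 0.48, edgeR adjusted p = 8.55e-18) in vitrified and 4.94 (SE 0.52, edgeR adjusted p = 8.75e-14) in fresh ones, rest on few counts at 0 h. At 8 h it had fallen below its 4 h level, by 2.02 in vitrified and 2.49 in fresh follicles. The fourth vitrified 1 h library had the highest value, and without it the vitrified step was 4.78. Dnaja4 shares 1581 exonic bases with Wdr61 on the opposite strand, and the library kit does not mark strand, so reads of the pair cannot be told apart there. Wdr61 itself averaged 11.2 to 24.01 CPM in the groups. Dnaja1, the main farnesylated J protein of the cytosol, averaged 115, 240.3, 268 and 255 CPM at the 4 times in vitrified and 121, 232, 319 and 314 in fresh follicles. It rose at 1 h by 1.07 in vitrified and 0.93 in fresh follicles. Dnajb5 rose by 1.27 in vitrified and 1.16 in fresh follicles, the first of which was lost without the first vitrified 1 h library. Dnaja2, like Dnaja1 a partner of Hspa8, rose by 0.47 in vitrified follicles but changed sign, to -0.13, with total counts alone.

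Of the 9 Hsp70 and Hsp110 genes, 6 rose at 1 h in each kind of follicle and none fell. Hspa1b and Hspa1a, the heat-inducible pair, rose at 1 h and fell at 4 h. Hspa1b had 18.99, 22.8, 26.8, 21.4 and 35.6 CPM in vitrified and 8.88 to 28.6 (median 13.8) in fresh follicles at 1 h, against 3.43 to 18.04 (median 5.50) in vitrified and 1.50 to 7.58 (median 3.91) in fresh ones at 0 h, with steps of 1.78 (SE 0.38, edgeR adjusted p = 5.38e-05) in vitrified and 1.98 (SE 0.36, edgeR adjusted p = 4.19e-06) in fresh ones. At 4 h it was at 0 to 2.64 (median 0.485) CPM in vitrified and 0 to 2.52 (median 0.650) in fresh ones, and no 4 h library reached any 1 h library. After rounding of the estimated counts, Hspa1a was at 0 in all 7 vitrified 4 h libraries, although its mean there was 0.046 TPM. Taking 3 counts over the group as the floor puts it at least 91.3-fold lower there than at 1 h. In fresh follicles it was at 0 to 2.01 (median 0) CPM at 4 h, 6 counts in all, against 9.09 to 26.6 (median 19.4) at 1 h. The floor covers counting error only. Transcripts of the pair are 99.2% identical over 2201 bases, so how reads were split between them is uncertain. Summed, a setting added after the data were seen, the pair stepped by 1.83 (SE 0.27) in vitrified and 1.66 (SE 0.25) in fresh follicles at 1 h. At 4 h the sum stepped by -6.04 (SE 0.47) in vitrified and -4.70 (SE 0.43) in fresh follicles. At 8 h the sum was higher again than at 4 h in vitrified follicles, by 2.53 (SE 0.60), and was not called in fresh ones, at 0.38 (edgeR adjusted p = 0.623). The difference between these 2 steps was 2.15 (SE 0.85, edgeR adjusted p = 0.355), so the kinds were not shown to differ.

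Hspa8 had 4030.4, 3639, 4481, 3683 and 3817 CPM in vitrified and 2933 to 4027 (median 3213) in fresh follicles at 1 h, against 865 to 1620.0 (median 1400.2) in vitrified and 1112 to 2077 (median 1381) in fresh ones at 0 h. Its steps were 1.51 (SE 0.12, edgeR adjusted p = 5.66e-19) in vitrified and 1.26 (SE 0.11, edgeR adjusted p = 1.02e-16) in fresh ones at 1 h, and -0.95 in vitrified and -0.70 in fresh ones at 4 h. A retrocopy, Gm15459, is 99.7% identical to Hspa8 over 1941 bases and had a row of its own with more counts than Hspa8. It averaged 8034 CPM in vitrified and 7023 in fresh follicles at 1 h, against 2673 in vitrified and 2638 in fresh ones at 0 h. The Hspa8 level is therefore uncertain. In the annotation, 12 of the 40 members match another gene at 95% identity or more over at least 300 bases. Some of these matches are copies elsewhere, while others are related genes or genes that overlap the member in place. Copies with rows of their own include Gm12346 and Gm5844 for Hsp90aa1, Hspd1-ps3 for Hspd1 and 5 for Dnajb6, so these levels are uncertain too. Hspa2, best known from male germ cells, averaged 1.96, 5.13, 0.626 and 4.10 CPM at the 4 times in vitrified and 2.89, 6.49, 1.32 and 3.34 in fresh follicles, and each step was called. Its call at 1 h was lost without the fifth vitrified 1 h library, and its call at 8 h in fresh follicles with 1 of their libraries left out. Hspa4, an Hsp110 relative, rose by 0.69 at 1 h in both kinds, was not called at 4 h and fell at 8 h by 1.51 in vitrified and 1.23 in fresh ones. Hspa13, a microsome-associated Hsp70, had mean levels of 37.9, 56.6, 89.2 and 39.9 CPM in vitrified and 38.5, 55.5, 90.4 and 38.9 in fresh follicles. Hspa14, a ribosome-bound Hsp70, was called at 1 step between neighbouring times, higher at 8 h than at 4 h in fresh follicles by 0.97 (SE 0.29, edgeR adjusted p = 0.00615), while the same step in vitrified follicles was 0.68 (SE 0.32, edgeR adjusted p = 0.0807).

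**Figure D3:**
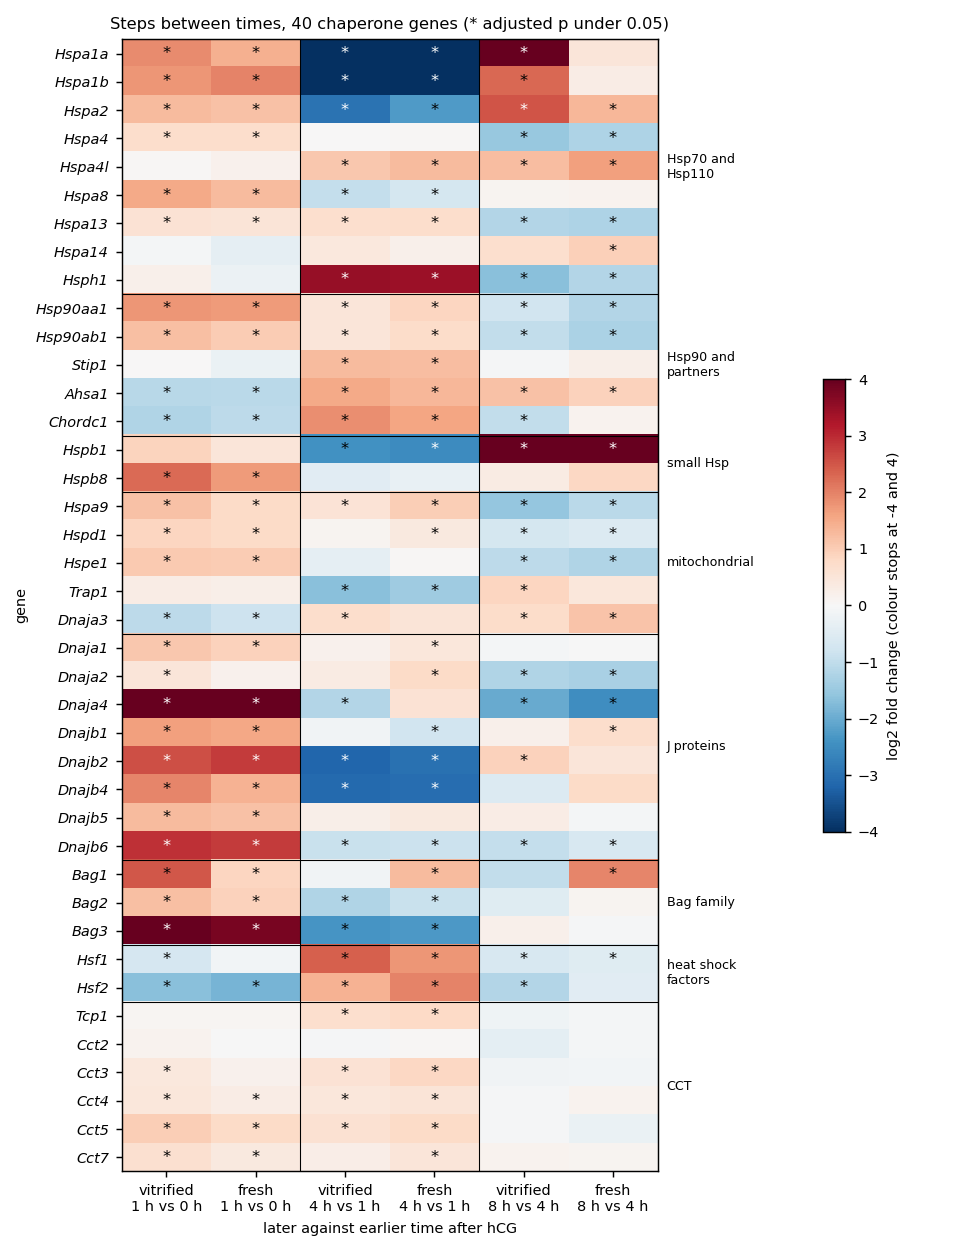
Log2 fold change of each member (rows, by role) at each step between times, vitrified and fresh side by side, with stars for calls by edgeR. Colours stop at -4 and 4, and both later vitrified steps of Hspa1a rest on a 4 h group with rounded counts of 0. Increases at 1 h sit among the J proteins, Bag proteins and Hsp70 genes, while Hsph1, the Hsp90 partners and the heat shock factors increase at 4 h.

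At 4 h, Hsph1, the Hsp90 genes with their partners, and both heat shock factors rose, while Bag3, several J proteins and the inducible Hsp70 pair fell. Relative to 1 h, 16 members rose and 12 fell in vitrified follicles, where 46.5% of all genes were called. In fresh follicles 20 rose and 12 fell, where 46.4% of all genes were called. The median log2 fold change of the members was 0.19 against -0.11 over all genes in vitrified and 0.47 against -0.03 in fresh follicles. The 15 members that rose in both were Hsph1, Hspa4l, Hspa13, the 5 Hsp90 genes and partners, Hspa9, Hsf1, Hsf2, Tcp1, Cct3, Cct4 and Cct5. The 11 that fell in both were Hspa1a, Hspa1b, Hspa2, Hspa8, Hspb1, Trap1, Dnajb2, Dnajb4, Dnajb6, Bag2 and Bag3, and no member was called in opposite directions. None of these 26 changed sign under the other settings tried. Beside this step, 6 of the 7 granulosa markers tested fell in vitrified and 5 in fresh follicles and none rose. The 6 theca and stroma markers (Cyp17a1, Col1a1, Col3a1, Dcn, Pdgfra and Acta2) took 0.0262% ± 0.0206 of counts in vitrified and 0.0535% ± 0.0487 in fresh follicles at 4 h, against 0.0681% ± 0.0275 in vitrified and 0.119% ± 0.0619 in fresh ones at 1 h (SD), and 1 of them fell in vitrified and 2 in fresh follicles. For both lists, their part in the members' changes was not tested.

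Hsph1, the Hsp110 that acts as exchange factor and disaggregase partner of Hsp70, made the largest increase of this step. It had 81.4 to 181 (median 149) CPM in vitrified and 94.4 to 225 (median 117) in fresh follicles at 4 h, against 16.2, 14.7, 13.3, 4.45 and 15.2 in vitrified and 9.55 to 15.7 (median 11.2) in fresh ones at 1 h. Every 4 h library was above every 1 h library, by 3.50 (SE 0.26, edgeR adjusted p = 3.45e-20) in vitrified and 3.43 (SE 0.25, edgeR adjusted p = 3.79e-21) in fresh ones, whereas its level at 1 h was not called different from 0 h, at 0.20 in vitrified and -0.23 in fresh ones. At 8 h Hsph1 had 52.7, 43.7 and 42.9 CPM in vitrified and 47.9, 60.6, 72.4 and 51.6 in fresh follicles, below all 4 h libraries. This holds for the shared plate. Vitrified 8 h libraries of the vitrified-only plate, given below, overlapped the vitrified 4 h range in CPM. Their mean was 25.6 TPM, against 21.8 in vitrified follicles at 4 h and 11.3 at 8 h on the shared plate. Of the 5 members with the 3-unit array shown above, Dnajb6, Hspd1 and Hspe1 thus rose at 1 h, Chordc1 fell at 1 h and rose at 4 h, and Hsph1 rose at 4 h. Hspa4l, a further Hsp110 relative, was higher at each later time, with mean levels of 3.54, 7.21 and 16.97 CPM at 1, 4 and 8 h in vitrified and 2.67, 6.46 and 20.2 in fresh follicles. Its call at 4 h in vitrified follicles was lost without the third vitrified 1 h library.

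The Hsp90 genes rose at 1 h and again at 4 h. Hsp90ab1, the constitutive Hsp90, had 1451 to 2669 (median 2232) CPM at 0 h, 5456, 5131, 5293, 4002 and 4298 at 1 h, 5692 to 8069.9 (median 6607) at 4 h and 2817, 3685 and 3892 at 8 h in vitrified follicles. In fresh follicles these were 1853 to 3099 (median 2106), 3842 to 5163 (median 4229), 6552 to 7775 (median 7539.7) and 3010.3, 3399.9, 2529 and 3094. The 4 times did not overlap with their neighbours in either kind. The steps were 1.19, 0.50 and -0.98 in vitrified and 1.02, 0.73 and -1.27 in fresh follicles. Hsp90aa1, the inducible form, went the same way, with means of 177, 601, 839 and 491 CPM in vitrified and 147, 483, 879.5 and 387 in fresh follicles. Its vitrified 8 h libraries had 310.2, 363 and 799.6, and the call of its 8 h decrease there was lost without the first or the second of them.

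The Hsp90 partners did not follow Hsp90 at 1 h. Ahsa1, which stimulates the ATPase of Hsp90, had 18.04 to 43.5 (median 32.9), 17.1, 18.3, 16.5, 8.49 and 15.4, 31.9 to 52.2 (median 45.4) and 71.3, 88.4 and 131 CPM at the 4 times in vitrified follicles. In fresh follicles it had 26.8 to 46.8 (median 35.6), 8.18 to 22.7 (median 19.5), 35.1 to 51.1 (median 45.2) and 93.6, 90.01, 67.00 and 81.9. It fell at 1 h, by 1.10 in vitrified and 1.07 in fresh ones on the log2 scale, then rose at 4 h and 8 h in both kinds. Chordc1, a zinc-binding Hsp90 partner, fell at 1 h by 1.21 in vitrified and 1.06 in fresh ones and rose at 4 h by 1.87 in vitrified and 1.58 in fresh ones. Stip1 (Hop), the adaptor between Hsp70 and Hsp90, was called at no step but that to 4 h, at 1.26 (SE 0.18, edgeR adjusted p = 1.65e-08) in vitrified and 1.24 (SE 0.18, edgeR adjusted p = 4.81e-09) in fresh ones.

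The heat shock factors did not rise at 1 h. Hsf2 had 10.2, 2.04, 2.44, 7.68 and 4.13 CPM in vitrified and 1.37 to 6.61 (median 2.89) in fresh follicles at 1 h, against 9.77 to 24.2 (median 17.4) in vitrified and 5.80 to 22.3 (median 11.98) in fresh ones at 0 h. The ranges of the 2 times overlapped at their edges. It fell by 1.68 in vitrified and 1.86 in fresh ones on the log2 scale and rose again at 4 h by 1.39 in vitrified and 1.97 in fresh ones. Hsf1, whose protein is the main activator of heat shock genes, had 110.3 to 136 (median 125) CPM in vitrified and 99.9 to 118 (median 113) in fresh follicles at 4 h, against 23.1, 25.7, 25.2, 15.4 and 29.8 in vitrified and 28.8 to 36.9 (median 33.3) in fresh ones at 1 h. No 4 h library overlapped a 1 h library, and the steps were 2.38 (SE 0.19, edgeR adjusted p = 1.49e-18) in vitrified and 1.75 (SE 0.18, edgeR adjusted p = 2.78e-14) in fresh ones. From 4 h to 8 h Hsf1 fell in both kinds with edgeR and TMM. In fresh follicles this turned to 0.16 with total counts alone and 0.29 with limma, and in vitrified ones to 0.016 with limma. Levels of Hsf1 RNA say nothing of the activity of its protein, which is set mainly after translation.

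Among the mitochondrial chaperones, Hspa9 (mortalin), Hspd1 (Hsp60) and Hspe1 (Hsp10) rose at 1 h and fell at 8 h in both kinds, except that the 8 h step of Hspd1 in fresh follicles changed sign with total counts alone (0.10) and with limma (0.24). Hspd1 had 168, 236, 208, 126 and 136 CPM in vitrified and 139 to 175 (median 162) in fresh follicles at 1 h, against 67.7 to 112 (median 100.1) in vitrified and 72.1 to 125 (median 93.9) in fresh ones at 0 h, with steps of 0.85 in vitrified and 0.76 in fresh ones. Its partner Hspe1 averaged 27.4, 55.9, 43.3 and 20.8 CPM at the 4 times in vitrified and 23.5, 47.7, 48.8 and 20.98 in fresh follicles, and stepped at 1 h by 1.05 in vitrified and 1.01 in fresh ones. The pair shares the array shown above and 112 bases of overlapping exons on opposite strands. Hspa9 averaged 81.6, 183, 267 and 91.99 CPM at the 4 times in vitrified and 86.1, 146, 289 and 137 in fresh follicles. Trap1, the Hsp90 of mitochondria, was not called at 1 h and fell at 4 h by 1.67 in vitrified and 1.43 in fresh ones. Dnaja3, a J protein of mitochondria, fell at 1 h by 1.04 in vitrified and 0.84 in fresh ones and rose at 8 h by 0.73 in vitrified and 1.14 in fresh ones, although its exons overlap those of Vasn and Coro7.

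CCT is a ring of different subunits, of which 6 are among the members, and differences between subunits were not tested. At 1 h Cct4, Cct5 and Cct7 rose in both kinds, although with total counts alone Cct4 changed sign in both and Cct7 in fresh follicles. The increase of Cct5 was 0.97 in vitrified and 0.77 in fresh ones. At 4 h Tcp1, Cct3, Cct4 and Cct5 rose in both kinds, by 0.45 to 0.66 in vitrified and 0.52 to 0.83 in fresh follicles, and Cct7 in fresh ones by 0.48. Cct2 was called at none of the steps between neighbouring times, with means of 211, 235, 227 and 175 CPM at the 4 times in vitrified and 221, 219, 227 and 217 in fresh follicles. No subunit was called at 8 h against 4 h with edgeR and TMM. With total counts alone and with limma, Tcp1, Cct2, Cct3, Cct4 and Cct7 were called higher in fresh follicles and Cct4, Cct5 and Cct7 in vitrified ones at this step.

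Relative to 4 h, 9 members rose and 14 fell at 8 h in vitrified follicles, where 37.1% of all genes were called. In fresh follicles 8 rose and 12 fell, where 36.5% of all genes were called. Hspa2, Hspa4l, Ahsa1, Hspb1 and Dnaja3 rose in both, and 12 fell in both, among them both Hsp90 genes, Hsph1, Hspa4, Hspa9, Hspd1, Hspe1, Dnaja2, Dnaja4 and Dnajb6. This split depends on scaling. With total counts alone, which moved the median of all genes to 0.73 in vitrified and 0.75 in fresh follicles, 18 members were higher and 5 lower in vitrified follicles, and 23 higher and 6 lower in fresh ones. With limma on the authors' log2(TPM + 1) values, 15 were higher and 4 lower in vitrified follicles, and 21 higher and 2 lower in fresh ones. Over all comparisons, limma put the median of all genes at up to 0.79 in absolute size. The shares of all genes called under these settings are not given, so these counts are not read as a trait of the members. With total counts alone Hspa4, Hspa13 and Dnaja2 were still lower in both kinds, at -0.88, -0.57 and -0.58 in vitrified and -0.61, -0.57 and -0.66 in fresh follicles. The vitrified values rest on the 3 shared-plate libraries of 8 h. On the vitrified-only plate, these genes averaged 16.8, 15.7 and 37.5 TPM at 8 h, above the vitrified 4 h means of 11.7, 13.4 and 31.4 TPM. The decrease in vitrified follicles was therefore not seen on both plates. Beside this step, 4 of the 7 granulosa markers tested fell in each kind while 1 rose in vitrified and 2 in fresh follicles. The theca and stroma markers took 0.0368% ± 0.0361 of counts in vitrified and 0.0235% ± 0.0143 in fresh follicles at 8 h (SD). For both lists, their part in the members' changes was not tested.

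Hspb1 (Hsp25, a small heat shock protein that binds actin and unfolded proteins) made the largest late increase. At 8 h it had 48.9, 15.9 and 97.4 CPM in vitrified and 11.4, 24.8, 32.8 and 9.39 in fresh follicles, against 0 to 2.92 (median 0.486) in vitrified and 0 to 2.01 (median 0) in fresh ones at 4 h. All 8 h libraries lay above all 1 h and 4 h libraries of the shared plate, by 5.93 (SE 0.58, edgeR adjusted p = 7.15e-14) in vitrified and 4.91 (SE 0.62, edgeR adjusted p = 4.45e-10) in fresh ones relative to 4 h, steps fitted from 12 counts in vitrified and 8 in fresh follicles at 4 h. A copy, Hsp25-ps1, has a row of its own and rose too, by 4.13 in vitrified and 4.80 in fresh follicles. Hspb8, the partner of Bag3 in selective autophagy, rose at 1 h instead, by 2.26 (SE 0.36, edgeR adjusted p = 1.39e-07) in vitrified and 1.72 (SE 0.35, edgeR adjusted p = 4.01e-05) in fresh ones, and was not called at later steps. It averaged 2.65, 13.99, 10.2 and 12.6 CPM in vitrified and 2.69, 8.78, 7.24 and 13.1 in fresh follicles.

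At 8 h against 1 h, 12 members were higher and 18 lower in vitrified follicles on the shared plate (50.1% of all genes called), 14 and 16 on the vitrified-only plate (59.4%), and 17 and 14 in fresh follicles (49.7%). Total counts alone gave 18 higher and 9 lower in vitrified follicles on the shared plate, 24 and 9 on the vitrified-only plate, and 21 and 7 in fresh follicles. With limma these were 17 and 7 in vitrified follicles on the shared plate, 25 and 7 on the vitrified-only plate, and 22 and 6 in fresh follicles. Over all comparisons the median of all genes reached 0.89 in absolute size with total counts alone and 0.79 with limma. The shares of all genes called under these settings are not given here. Hspa4l was above its 1 h level by 2.34 in vitrified follicles on the shared plate, 4.08 on the vitrified-only plate and 2.89 in fresh follicles. Hspb1 was above it by 3.52 in vitrified follicles on the shared plate, 4.15 on the vitrified-only plate and 2.41 in fresh ones. Both thus ended above their 1 h level on each plate. On the low side, Dnajb4 stood at -3.68 in vitrified follicles on the shared plate, -3.54 on the vitrified-only plate and -2.29 in fresh ones, and Bag3 at -2.13, -3.23 and -2.34 in the same order. Hspa1b and Dnajb2 also stood below their 1 h level, Hspa1b at -2.93 in vitrified follicles of the shared plate and -3.91 in fresh ones, and Dnajb2 at -2.24 in vitrified follicles of the shared plate and -2.49 in fresh ones. Hspa1a stood at -4.78 in vitrified follicles on the shared plate, -1.82 on the vitrified-only plate and -4.74 in fresh ones.

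Between vitrified and fresh follicles of the same time, Bag1 at 8 h was the single call among the members. No member was called at 0 h (0.967% of all genes called), at 1 h (0.555%) or at 4 h (0.118%) with edgeR, nor with DESeq2. At an unadjusted p below 0.05 there were 8 members at 0 h, 3 at 1 h and 1 at 4 h. The shares above are of adjusted calls. The share of all genes at this looser threshold is not given, so no excess among the members is read from these counts. The difference was within 0.5 on the log2 scale for 37, 35 and 38 of the 40 members, and the median SE was 0.13, 0.22 and 0.20, so small differences were not detectable here. At 0 h differences ranged from -0.54 for Dnajb4 to 0.97 for Dnaja4. Hspa1b was at 3.43 to 18.04 (median 5.50) CPM in vitrified and 1.50 to 7.58 (median 3.91) in fresh follicles at that time, a difference of 0.86 (SE 0.31, edgeR adjusted p = 0.199), with ranges that overlapped. The pair Hspa1a and Hspa1b summed differed by 0.21 (SE 0.21, edgeR adjusted p = 0.787). With limma on the authors' log2(TPM + 1) values, 17 of the 37 members kept by its filter were lower in vitrified follicles at 0 h, where 1422 of 7244 genes (19.6%) were called. They ranged from -0.68 for Hspa2 to -0.27 for Dnajb6, and the median of all genes was -0.22. The part of Gm10800, which fills a large and varying share of TPM, was not tested in these or the other limma results. The 6 theca and stroma markers took 0.0780% ± 0.0600 of counts in vitrified and 0.123% ± 0.0722 in fresh follicles at 0 h, and their part in these values was not tested.

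**Figure D4:**
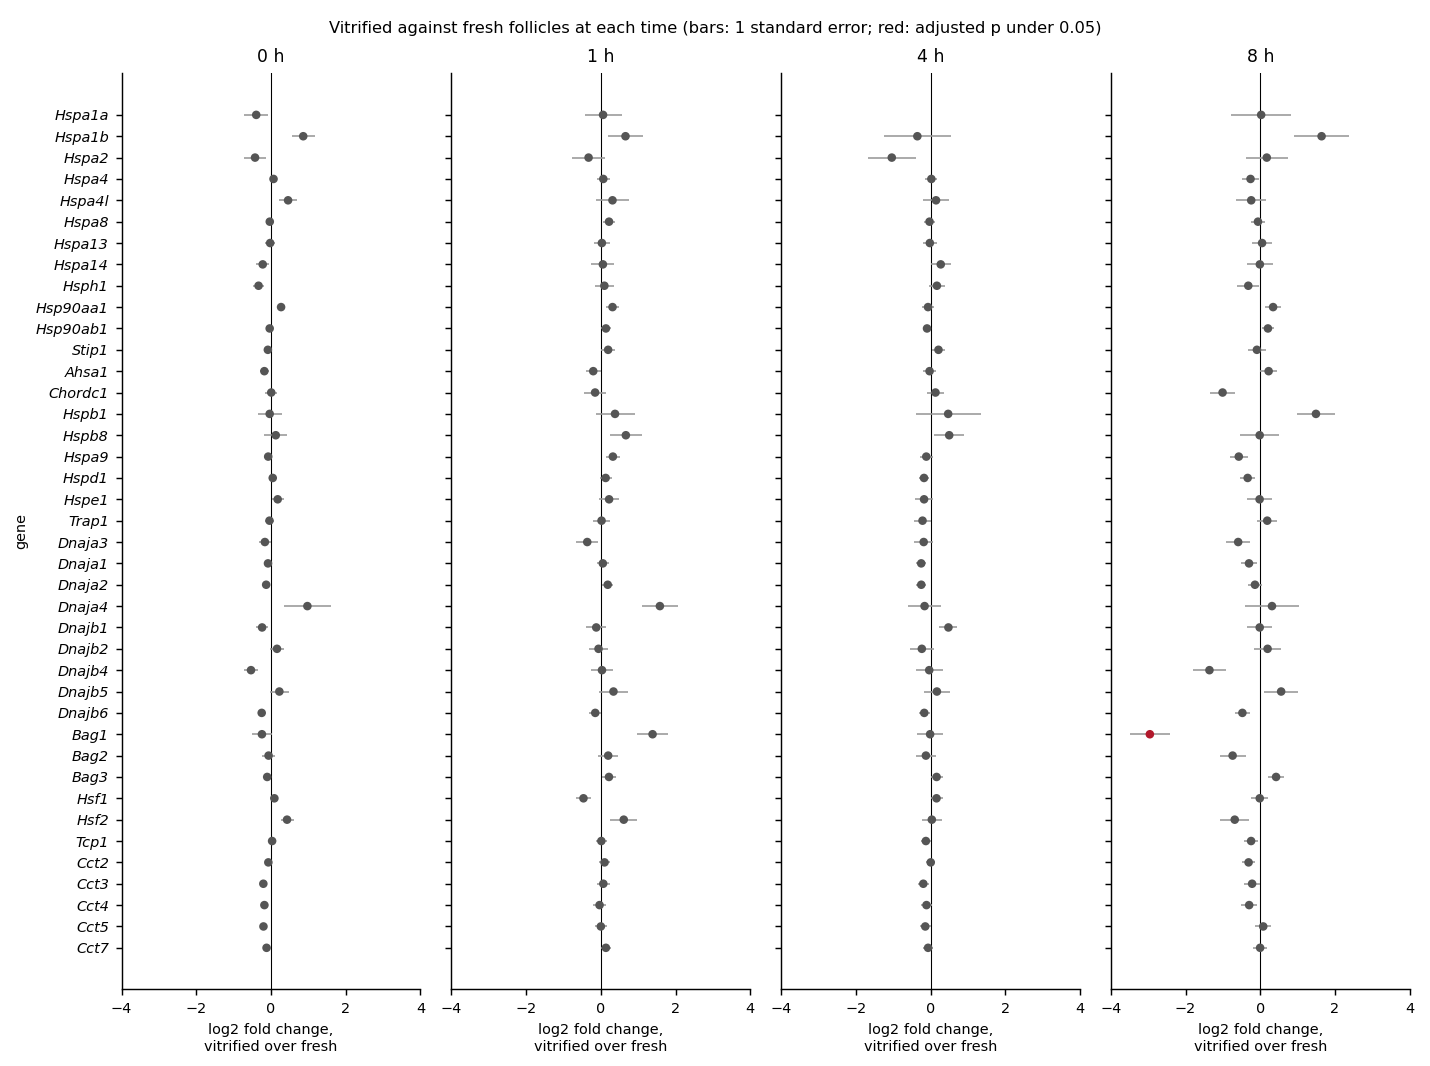
Log2 fold change of vitrified against fresh follicles for each member at 0, 1, 4 and 8 h, with bars of 1 standard error from the edgeR fit. Hspa1a at 4 h is left out because all 7 vitrified libraries had rounded counts of 0. Bag1 at 8 h, at -2.96, is the 1 point drawn in red, for a call.

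At 8 h Bag1 was lower in vitrified follicles, where 2.06% of all genes were called. At this time 8 members had an unadjusted p below 0.05, a looser threshold for which the share of all genes is not given. The median SE of the members was 0.27, larger than at 0, 1 or 4 h, so differences of some size could be missed here. Bag1 is a nucleotide exchange factor of Hsp70 with a ubiquitin-like domain, known for opposing cell death. It had 17.8, 29.7 and 14.5 CPM in the 3 vitrified follicles and 138, 213, 125 and 169.8 in the 4 fresh ones, with no overlap. The log2 fold change was -2.96 (SE 0.54, edgeR adjusted p = 0.000623). The 9 vitrified follicles of the vitrified-only plate had 14.7 to 41.9 (median 30.4) CPM at 8 h, also below every fresh one. At 4 h both kinds were alike, with 12.1 to 57.8 (median 45.9) CPM in vitrified and 26.7 to 63.8 (median 35.4) in fresh follicles. Between 4 h and 8 h the step of Bag1 was -0.99 (SE 0.47, edgeR adjusted p = 0.093) in vitrified and 1.96 (SE 0.39, edgeR adjusted p = 3.97e-05) in fresh follicles. The difference between these steps was -2.94 (SE 0.63, edgeR adjusted p = 0.00797). It missed the threshold without the third vitrified 8 h library, at -2.70 (edgeR adjusted p = 0.095), with the lowest-depth library of each group left out, at -2.76 (edgeR adjusted p = 0.095), and with the additive plate term, at -1.79 (edgeR adjusted p = 0.331). By contrast, the difference between kinds at 8 h was called in each alternative, from -3.31 to -1.80. Chmp5, which starts 113 bases from Bag1, was not called at 8 h, at -0.36.

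Other differences at 8 h missed the threshold. Dnajb4 was at 2.49, 1.84 and 1.95 CPM in vitrified and 7.47, 4.39, 3.42 and 5.34 in fresh follicles, -1.36 (SE 0.43, edgeR adjusted p = 0.0821), and was called by DESeq2 at -1.39. Chordc1 was at 18.7, 21.8 and 3.25 CPM in vitrified and 28.6, 21.1, 31.8 and 35.4 in fresh ones, -1.01 (SE 0.34, edgeR adjusted p = 0.109), and Hspb1 differed by 1.49 (SE 0.51, edgeR adjusted p = 0.122). Without the second vitrified 8 h library, Chordc1 (-1.48), Hspb1 (1.94) and Hspa9 (-0.96) passed. At 1 h Bag1 depended on 1 library as well: the 5 vitrified follicles had 11.3, 12.2, 17.6, 168 and 21.9 CPM, against 12.3 to 22.1 (median 17.5) in fresh ones. Without the fourth of them its vitrified step at 1 h was 0.97 in place of 2.49, and its step at 4 h 1.37 in place of -0.15. At 1 h Bag1 was called between the kinds with any of the first 3 vitrified libraries left out, at 1.60 to 1.64. The fourth library also had the highest Dnaja4 and the lowest Hsph1 of its group, and 11.9% of its counts lay in Gm10800. In tests of the steps as a whole, no member differed between kinds from 0 h to 1 h (0.160% of all genes called) or from 1 h to 4 h (0.0421%), and Bag1 did so from 4 h to 8 h (0.993%).

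Between the 2 plates of vitrified follicles, 2 members were called at 1 h, where 1.37% of all genes were. They were Dnaja1, at 232 to 571 (median 378) CPM on the vitrified-only plate against 299.9, 259, 225, 194 and 223 on the shared plate, and Bag1, at -1.66, a call that was lost without the fourth library of the shared plate. At 8 h, 9 members were higher and 3 lower on the vitrified-only plate, where 23.4% of all genes were called. With RLE size factors 8 were higher and 5 lower, for which the share of all genes is not given. With DESeq2 12 were higher and 7 lower, where 3180 genes were called in place of 2779 with edgeR. Hsph1 had 81.2 to 128 (median 106) CPM on the vitrified-only plate and 52.7, 43.7 and 42.9 on the shared plate, and Hspa4 had 100.1 to 145 (median 132) on the vitrified-only plate and 48.5, 73.3 and 30.04 on the shared plate, both without overlap. Cct4, Chordc1, Hspa13, Dnaja2, Hspa9, Cct2 and Hspa1a were higher too, by 0.57 to 2.30 on the log2 scale, while Dnajb5, Bag3 and Trap1 were lower, at -1.46, -1.11 and -0.67. Hspb1, Bag1 and Hspa1b, whose 8 h levels are described above, were not among the 12. For this reason vitrified and fresh follicles of 1, 4 and 8 h were compared within the shared plate, and those of 0 h within the zero-hour plate. Within each of these plates the kinds lay in different rows, so a difference between rows cannot be told apart from one between kinds.

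A list of 65 other genes of the pathway, of which 55 were tested, was counted beside them. At 1 h, 9 were higher and 11 lower in vitrified follicles, or 36.4% of those tested where 43.5% of all genes were called, and 10 higher and 11 lower in fresh ones, or 38.2% against 42.1%. Their median step was -0.07 in vitrified and -0.06 in fresh follicles. At 4 h against 1 h, 21 were higher and 10 lower in vitrified and 18 higher and 13 lower in fresh follicles, or 56.4% of those tested in each, where 46.5% of all genes were called in vitrified and 46.4% in fresh ones. At 8 h against 4 h, 17 were higher and 10 lower in vitrified follicles (49.1%, where 37.1% of all genes were called) and 12 higher and 5 lower in fresh ones (30.9%, where 36.5% were). Ttc4, an Hsp90-binding TPR protein, averaged 2.72, 0.547, 2.02 and 3.82 CPM at the 4 times in vitrified follicles. It had rounded counts of 0 in 5 of the 6 fresh 1 h libraries. Grpel2, an exchange factor of mitochondrial Hsp70, stood lower at 1 h than at 0 h, at -2.75 in vitrified and -1.79 in fresh follicles. Ier5, an immediate early gene that feeds into Hsf1 activity, averaged 8.56 ± 14.4 CPM in vitrified and 1.98 ± 0.843 in fresh follicles at 1 h, against 0.103 ± 0.204 in vitrified and 0.265 ± 0.364 in fresh ones at 0 h (SD). Dnajc5, the cysteine string protein of synaptic vesicles, averaged 140.0 CPM at 4 h and 41.4 at 8 h in vitrified follicles and 149 and 48.8 in fresh ones. Dnajb13, a J protein of sperm flagella and cilia, stood lower at 4 h than at 1 h, at -4.20 in vitrified and -3.04 in fresh follicles. Among the small heat shock proteins, Cryab had rounded counts of 0 in all 15 vitrified 0 h libraries. It averaged 3.58 ± 4.55 CPM in vitrified and 1.16 ± 0.941 in fresh follicles at 4 h (SD). Hspb6 was higher at 8 h than at 4 h in fresh follicles by 2.11, and the related Hspb11 stood lower at 4 h than at 1 h in them, at -1.93. Serpinh1, a collagen chaperone, was higher at 8 h than at 4 h by 2.42 in vitrified and 1.56 in fresh follicles, although its vitrified 8 h mean was 45.3 CPM on the vitrified-only plate and 251 on the shared plate. Between the kinds, none was called at 0, 1 or 4 h and Lonp1, the main protease of the mitochondrial matrix, was called at 8 h. It had 48.5, 34.7 and 26.5 CPM in vitrified and 189, 248, 197 and 175 CPM in fresh follicles, a log2 difference of -2.48 (SE 0.50, edgeR adjusted p = 0.00156). On the vitrified-only plate Lonp1 ranged from 19.8 to 168 CPM (median 111), above the shared plate by 1.54 (SE 0.44, edgeR adjusted p = 0.00687) and below every fresh 8 h library.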

How the data were processed

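Each library held the RNA of 1 follicle, made into cDNA with Smart-Seq2 and sequenced without molecular identifiers or strand, per the labels' protocols. The deposited counts are estimated counts per gene (17.2% not whole). The authors also deposited log2(TPM + 1) values, which are per transcript length and keep no depth. The submitters' processing notes name Partek, Bowtie2, HISAT2, DESeq2 and the mm10 build. The sources used here do not state the treatment of reads that map to more than 1 gene.

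Counts were rounded, filtered with filterByExpr (minimum count 10), scaled with TMM and fitted with edgeR 4.0.16 (robust quasi-likelihood, R 4.3.3) as 10 means of group and plate over 83 libraries. Total counts of 682200 to 6504588 set the precision. P-values for 18 comparisons were adjusted over 11889 genes in each comparison. Separate plate means were used because the plates differed at 8 h, and a single additive plate term was an alternative. Other alternatives were DESeq2 1.42.0, limma 3.58.1 on the log2(TPM + 1) values, RLE factors, total counts alone, no filter, pooled plates, compared groups alone, lowest-depth libraries left out and 1 library left out at a time. The scripts' tests were tested on simulated data.

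The members and gene lists were chosen with earlier results of these data known. Members described with values were a set chosen by name and, in each comparison, the 5 called with the largest change. Of the other pathway genes, the 3 called with the largest change at each step between neighbouring times were named. Copies were sought at 95% identity or more over 300 bases, a search that also finds genes overlapping a member.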

Additional observations from a re-analysis of the deposited data

Results flagged for a closer look

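Bag1 differed between the kinds in its step from 4 h to 8 h. The difference of the vitrified minus the fresh step was -2.94 (SE 0.63, edgeR adjusted p = 0.00797), and the levels behind it stand in the text. The call was lost without the third vitrified 8 h library (-2.70), with the lowest-depth libraries left out (-2.76) and with the additive plate term (-1.79).

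In 153 groups of 22 members, 12 values lay far from the others of their group. For normally distributed values, chance gives about 1 in 20 groups. The check used CPM without a log scale, so this rate need not hold here, and no excess over chance is read from the count. Neither the 0 h groups (15 vitrified and 18 fresh libraries) nor the 3 vitrified 8 h libraries of the shared plate were checked, being too large or too small for the check. On the shared plate at 1 h, the fourth vitrified library accounted for 4 of them. It had 168 CPM of Bag1 (next 21.9), 41.6 of Dnaja4 (next 12.4), 8.49 of Hspa4l (next 3.26) and, as the lowest of its group, 4.45 of Hsph1 (next 13.3). Gm10800 took 11.9% of its counts, and the part of this in the members' values was not tested. Fresh libraries were the highest of their group at 202 CPM of Dnajb1 at 1 h (next 104) and 225 of Hsph1 at 4 h (next 148).

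On the vitrified-only plate, the others were also the highest of their groups. At 1 h a library had 34.1 CPM of Hspa1b (next 19.2), another 571 of Dnaja1 (next 399.95) and a further one 145 of Dnajb1 (next 84.4). At 8 h, 1 library had both 4299.8 CPM of Hsp90ab1 (next 3740.4) and 48.0 of Hspb8 (next 17.1), and another had 119 of Dnajb1 (next 89.3). Vitrified and fresh follicles were compared without that plate, except in the setting with plates pooled.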

How the results depend on the processing

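Leaving out Gm10800 and summing Hspa1a with Hspa1b were added after the data were seen. Of the values of single members under all settings together, 237 lost a call, 167 gained one and 87 changed sign. A change of sign was counted only for values called in the reported fit, in the alternative or in both. The other 9017 kept their side of the threshold, and those called kept their direction. Values called in neither fit are among the 9017 even where their sign changed. The calls at 4 h against 1 h, and the increases of Bag3 and Dnajb6 at 1 h and of Hspb1 at 8 h, kept their direction in every setting. No paired analysis was possible because the labels give no replicate numbers that vitrified and fresh follicles share.

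For vitrified against fresh follicles at 0 h, total counts alone called 1 member (Dnajb6, -0.36) and limma called 17. Over all genes, total counts alone called 183 and limma 1422 of the 7244 it tested, against 115 of 11889 as reported. At 8 h, 2 members were called, in place of 1, by total counts alone, the additive plate term, pooled plates, DESeq2 and limma. These were Bag1 with Dnajb4 (-1.51 with total counts, -1.29 with the plate term, -1.39 with DESeq2), Hspa4 (0.82, pooled plates) or Chordc1 (-1.02, limma). Over all genes, calls numbered 258 with total counts, 121 with the plate term, 726 with pooled plates, 417 with DESeq2 and 240 with limma. The reported fit called 245. Between plates at 1 h the count was 1 with no filter on low counts and 0 with the compared groups alone and with limma, and at 8 h it was 19 with DESeq2. Over all genes these settings called 170, 1 and 20 at 1 h and 3180 at 8 h. The step difference from 4 h to 8 h was called for 0 members with the lowest-depth libraries left out and with the additive plate term, and for 2 with limma (Bag1 and Chordc1). Over all genes it was called for 21, 7 and 126 in the same order.

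Leaving out 1 library at a time, counts of members called ranged from 0 to 1 for vitrified against fresh at 1 h and from 1 to 4 at 8 h, where 4 came without the second vitrified library. They ranged from 30 to 32 at 1 h against 0 h, 26 to 29 at 4 h against 1 h, 16 to 20 at 8 h against 4 h and 25 to 31 at 8 h against 1 h in vitrified follicles, and from 17 to 19 at 8 h against 4 h and 29 to 31 at 8 h against 1 h in fresh ones. Between the plates they ranged from 0 to 2 at 1 h, with 0 without the fourth shared-plate library, and from 6 to 12 at 8 h, with 6 without the third. The step differences ranged from 0 to 0 for 0 h to 1 h and for 1 h to 4 h, and from 0 to 1 for 4 h to 8 h. Shares of all genes called with 1 library left out are not given, so these ranges are not read as a trait of the members. Without the fourth vitrified 1 h library, Bag1 was at 1.37 at 4 h against 1 h and 0.39 at 8 h against 1 h, where the ranges over single libraries left out were -0.40 to 1.37 and -1.44 to 0.39.

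With total counts alone, 42 values that were called in the reported fit, the alternative or both changed sign. In vitrified follicles, 1 h against 0 h, these were Hspa13 (-0.035), Stip1 (-0.60), Dnaja2 (-0.13), Tcp1 (-0.54), Cct2 (-0.45), Cct3 (-0.19) and Cct4 (-0.16). In fresh follicles, 1 h against 0 h, these were Dnaja2 (-0.33), Tcp1 (-0.41), Cct4 (-0.18) and Cct7 (-0.091). In vitrified follicles, 8 h against 4 h, these were Stip1 (0.56), Dnaja1 (0.51), Cct4 (0.55) and Cct5 (0.52). In fresh follicles, 8 h against 4 h, these were Hspd1 (0.10), Dnaja1 (0.62), Dnajb6 (0.0015), Bag3 (0.60), Hsf1 (0.16), Tcp1 (0.57), Cct2 (0.58) and Cct3 (0.52). In vitrified follicles of the shared plate, 8 h against 1 h, these were Hsp90ab1 (0.26), Hspd1 (0.18) and Cct2 (0.35). In vitrified follicles of the vitrified-only plate, 8 h against 1 h, these were Hspa4 (0.51), Hspa8 (0.15), Hspa13 (0.80), Hsp90aa1 (0.15), Hsp90ab1 (0.46), Hspa9 (0.25), Hspd1 (0.025), Dnaja1 (0.69), Dnaja2 (0.45) and Cct2 (0.73). In fresh follicles, 8 h against 1 h, these were Hspa8 (0.078), Hsp90ab1 (0.084), Hspa9 (0.54), Hspd1 (0.50), Dnaja2 (0.069) and Cct2 (0.63). With limma, 38 values called in the same way changed sign. In vitrified follicles, 8 h against 4 h, these were Dnaja1 (0.59), Hsf1 (0.016), Cct4 (0.62) and Cct5 (0.60). In fresh follicles, 8 h against 4 h, these were Hspd1 (0.24), Dnaja1 (0.75), Dnajb6 (0.13), Bag3 (0.71), Hsf1 (0.29), Tcp1 (0.71), Cct2 (0.71) and Cct3 (0.65). In vitrified follicles of the shared plate, 8 h against 1 h, these were Hspa8 (0.090), Hsp90aa1 (0.52), Hsp90ab1 (0.45), Hspd1 (0.30), Trap1 (0.019), Dnaja2 (0.064), Bag1 (0.50) and Cct2 (0.46). In vitrified follicles of the vitrified-only plate, 8 h against 1 h, these were Hspa4 (0.74), Hspa8 (0.45), Hspa13 (1.01), Hsp90aa1 (0.44), Hsp90ab1 (0.73), Hspa9 (0.50), Hspd1 (0.29), Dnaja1 (0.97), Dnaja2 (0.72) and Cct2 (1.00). In fresh follicles, 8 h against 1 h, these were Hspa8 (0.20), Hsp90aa1 (0.43), Hsp90ab1 (0.20), Hspa9 (0.68), Hspd1 (0.59), Dnaja2 (0.17), Dnajb1 (0.78) and Cct2 (0.73). With plates pooled, the changes of sign were Bag1 (0.10) at 8 h against 1 h, Bag3 (-0.54) and Cct4 (0.72) at 8 h against 4 h in vitrified follicles, and Hspa4 (0.82) at 8 h between the kinds. With the additive plate term it was Bag1 at 8 h against 1 h (0.44). The cause was not tested.

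The comparison at 8 h rests on 3 vitrified and 4 fresh libraries, and the lowest of the vitrified ones had 1915521 counts.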
